A study of Mus musculus with 3 samples.

Results

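The genes of the cytosolic ribosomal proteins were followed through the cells of 3 mouse rhabdoid brain tumours. All mouse symbols that start with Rpl or Rps and a digit were taken, together with Rplp0, Rplp1, Rplp2 and Rpsa, and without pseudogene names (-ps) and the S6 kinases (Rps6k). This gave 86 of the 31053 genes in the count matrices, 52 named for the large subunit and 34 for the small one, and each of them had at least 1 UMI in the files. The 3 tumours, here called tumours 1, 2 and 3, were of the R26-SHH group and of the genotype Rosa 26-CreERT2::Smarcb1flox/flox. In this line a tamoxifen-inducible Cre under the broadly active Rosa26 promoter deletes Smarcb1, which encodes a core subunit of SWI/SNF, the complex that shifts nucleosomes along DNA. No other group of animals was analysed here nor any tumour-free brain, so each comparison below was made between cell classes inside the same tumours. The ages of the mice were not given in the labels.

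A ribosome is built of a small subunit, which reads the mRNA, and a large subunit, which joins the amino acids, and nearly every ribosomal protein is present once per particle. The mRNAs of these proteins are among the most abundant of a dividing cell. They share a pyrimidine tract at their 5′ end, the TOP motif, through which mTOR and the binding protein Larp1 adjust their translation, while Myc and Mycn are known to raise the transcription of ribosomal protein and ribosome assembly genes. UMI counts measure mRNA only, not protein or translation.

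The RefSeq starts of some members are shown here because the tract is known from this family, and they range from long runs to short ones. Each line gives 30 bases on GRCm38.p6, 15 on each side of the annotated start, with the longest run of C and T in capitals, the first one where runs are equally long, as in Rps27rt.
Rps6 (chr4:86857353-86857382, minus strand): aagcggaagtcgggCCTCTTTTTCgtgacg
Rpl35 (chr2:39005117-39005146, minus strand): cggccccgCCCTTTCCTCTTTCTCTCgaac
Rplp2 (chr7:141447636-141447665, plus strand): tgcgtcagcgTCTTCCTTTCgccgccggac
Rpl38 (chr11:114668565-114668594, plus strand): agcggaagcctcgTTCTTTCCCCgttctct
Rps27 (chr3:90213634-90213663, minus strand): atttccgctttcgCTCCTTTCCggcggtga
Rps27l (chr9:66946071-66946100, plus strand): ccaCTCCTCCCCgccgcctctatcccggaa
Rps27l, other annotated start (chr9:66946398-66946427, plus strand): accatgggCTTCagggtcactaacgggcct
Rps27rt (chr9:114982725-114982754, minus strand): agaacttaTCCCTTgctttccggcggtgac
Rpl22l1 (chr3:28805493-28805522, plus strand): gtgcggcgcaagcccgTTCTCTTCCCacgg
Rpl39 (chrX:37085208-37085237, minus strand): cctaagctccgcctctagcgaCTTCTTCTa
Rps12 (chr10:23787195-23787224, minus strand): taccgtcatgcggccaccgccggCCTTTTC
Rps4x (chrX:102189377-102189406, minus strand): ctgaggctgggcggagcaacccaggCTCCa
Rps6 is the small-subunit protein phosphorylated by the S6 kinases. The other members shown are described in the results below. Their longest runs go from 18 bases in Rpl35 to 4 in Rps4x and in the other Rps27l start. Of the 86 members, 66 had a sequence in the table used, with 78 annotated starts. A run of at least 8 pyrimidines, read on the gene's own strand only, lay in 28 of these 78 windows (35.9%), against 3943 of 32851 windows (12.0%) over all genes in the table. The median longest run was 6 bases in the members and 4 over all genes. The match is a description of these letters at annotated starts, which may lie some bases away from the start used in the tumours.

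Cells were sorted into classes by marker genes, none of which was a ribosomal protein gene. Of the barcodes with at least 3000 UMIs and a mitochondrial share under the limit, 6354, 3438 and 2806 were kept in tumours 1, 2 and 3, with medians of 9849, 7827.5 and 19576.5 UMIs. Stem-like cells (Sox2, Sox9, Nes and others) numbered 2196, 927 and 1511, progenitor-like cells (Dlx1, Dlx2, Gsx1 and others) 1307, 414 and 626, neuronal-like cells (Dcx, Stmn2, Tubb3 and others) 368, 310 and 45, and mesenchymal-like cells (Twist1, Prrx1, Col1a1 and others) 597, 403 and 59. Immune cells with microglia and macrophage markers numbered 489, 468 and 109, and endothelial cells 62, 29 and 39. Levels are given as CPM, a gene's UMIs scaled to a total of 1000000 UMIs in the summed cells of a class and tumour. Smarcb1 was at 0 to 2.70 CPM in the summed cells of the 4 tumour states, at 19.6 to 29.2 in immune cells and at 40.0 to 42.7 in endothelial cells, so the loss of the targeted gene went with the tumour labels in each tumour. The cells with astrocyte markers were kept out of the comparisons, since they held 0 and 7.37 CPM of Smarcb1 in tumours 1 and 2, the second from 3 UMIs (exact Poisson 95% interval 1.52 to 21.5), so their label as non-tumour cells could not be settled. The labels call the cells of each sample tumour cells, yet the immune and vascular classes were present in each. RNA of tumour markers was also seen in immune cells, where the 8 stem markers summed to 303 to 319 CPM in immune cells, against 3028 to 4969 in stem-like cells.

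Ribosomal protein genes took 19.5%, 15.9% and 21.7% of all UMIs of tumours 1, 2 and 3. Of the 4 tumour states, the median share per cell was highest in the progenitor-like cells, with 21.7%, 18.7% and 23.4%, and close to it in the stem-like cells, with 21.4%, 18.5% and 23.3%. Mesenchymal-like cells had 19.8%, 18.1% and 18.8%, and neuronal-like cells 15.2%, 13.1% and 13.8%. In each tumour the neuronal-like median was the lowest of the 4 tumour states. The order from progenitor-like over stem-like and mesenchymal-like to neuronal-like cells was the same in the 3 tumours, although the stem-like and progenitor-like medians were less than 1 percentage point apart and their order turned with a stricter gate. Between tumours, tumour 2 was the lowest for each of these states. Immune cells had 19.9%, 19.1% and 16.4%, endothelial cells 14.1%, 13.3% and 10.5%, and mural cells (the pericytes and smooth muscle of vessels) 10.3% in 55, 9.85% in 11 and 8.29% in 21 cells. Cells with mature oligodendrocyte markers had 5.54% in 10 cells of tumour 1 and 5.14% in 29 cells of tumour 2, below these classes, and 11.8% in 2 cells of tumour 3, above its mural and endothelial cells.

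**Figure D1:**
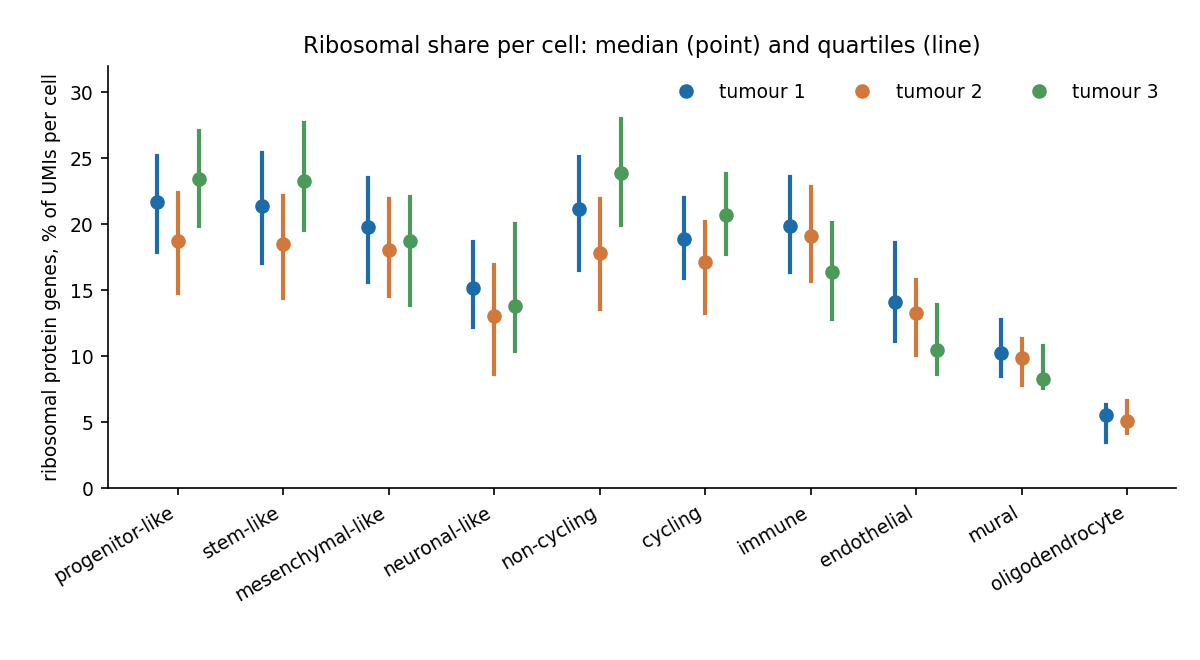
Share of each cell's UMIs on the 86 ribosomal protein genes, in percent (vertical axis), by cell class (horizontal axis) and tumour (colour). Points are medians over cells and lines span the quartiles; classes with under 10 cells in a tumour are not drawn. The neuronal-like medians, 13.1% to 15.2%, lie below the progenitor-like medians, 18.7% to 23.4%.

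The first comparison asked whether ribosomal protein mRNAs differ between progenitor-like and neuronal-like tumour cells. They fell together: 79 of the 84 members tested were lower in neuronal-like cells and none was higher (edgeR quasi-likelihood test on UMIs summed per tumour and class, with the tumour as a block, adjusted p under 0.05). Over all 15395 genes tested, 8.2% were lower by the same rule. The median member differed by -0.63 on the log2 scale, the median of all genes by -0.02, and each of the 83 members other than Rpl39l had a negative value. The share per cell was 14.0% ± 1.06 (SD, n = 3 tumours) in neuronal-like and 21.3% ± 2.38 in progenitor-like cells. The difference was -6.58, -5.69 and -9.60 percentage points in tumours 1, 2 and 3, with the same sign in 3 of 3 (exact two-sided sign-flip permutation test, p = 0.25, the smallest that 3 tumours allow).

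Both subunits took part. Of the large-subunit members 46 of 50 were lower, with a median of -0.62, and of the small-subunit members 33 of 34, with a median of -0.65. The members with the largest differences were Rps27l, Rpl12, Rps20, Rps2, Rps18 and Rplp0. Rps18, a protein of the small subunit's head, was at 3198, 2656 and 3310 CPM in progenitor-like cells and at 2188, 1688 and 2210 in neuronal-like cells of tumours 1, 2 and 3, so the groups did not overlap. Its log2 difference was -0.76 (SE 0.14, adjusted p = 0.00062). Rps2, which lines the path by which mRNA enters the small subunit, went from 2498, 2020 and 2885 to 1647, 1417 and 1784 CPM (log2 difference -0.77, SE 0.15).

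The stalk of the large subunit, which recruits the elongation factors, is made of Rplp0 with its partners Rplp1 and Rplp2, and Rpl12 sits at its base. Rplp0 was at 3078, 2529 and 3716 CPM in progenitor-like and at 2123, 1673 and 2379 in neuronal-like cells, each tumour's neuronal-like value being the lower one (log2 difference -0.76, SE 0.17, adjusted p = 0.0029). The log2 differences of Rpl12, Rplp1 and Rplp2 were -0.78, -0.62 and -0.71, each past the threshold. Rpsa, a small-subunit protein that also serves as a laminin receptor, differed by -0.65.

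Some paralogues were lower together. Rpl22 and its near relative Rpl22l1 differed by -0.72 and -0.65, and Rps27 and Rps27l by -0.61 and -0.79. Rpl39, at the end of the exit tunnel, differed by -0.55, Rpl3 by -0.69, the X-linked Rps4x by -0.67 and Rpl36a by -0.76. Rps27l, known as a p53 target gene, was at 452, 383 and 421 CPM in progenitor-like and at 306, 212 and 307 in neuronal-like cells, with no overlap.

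The members outside this group were few. The 5 tested members that did not pass were Rpl10, Rpl36al, Rpl7l1, Rps19bp1 and Rpl39l. Rpl10, a large-subunit protein near the catalytic centre, was at 943, 949 and 1459 CPM in progenitor-like and at 853, 889 and 1214 in neuronal-like cells. The groups overlapped across tumours, while each tumour's neuronal-like value was the lower one (log2 difference -0.34, SE 0.16, adjusted p = 0.15). Rpl36al gave -0.38 (SE 0.17). Rpl7l1, a relative of Rpl7 that takes part in assembling the large subunit, gave -0.47, against -0.64 for Rpl7. Rps19bp1 carries an Rps symbol but is a nucleolar binding partner of Rps19 and no part of the ribosome. It gave -0.11 (SE 0.19), the smallest difference of the members tested, and its sign changed under 4 alternatives. Rpl39l held at most 1 UMI in any of these sums and has no usable value.

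**Figure D2:**
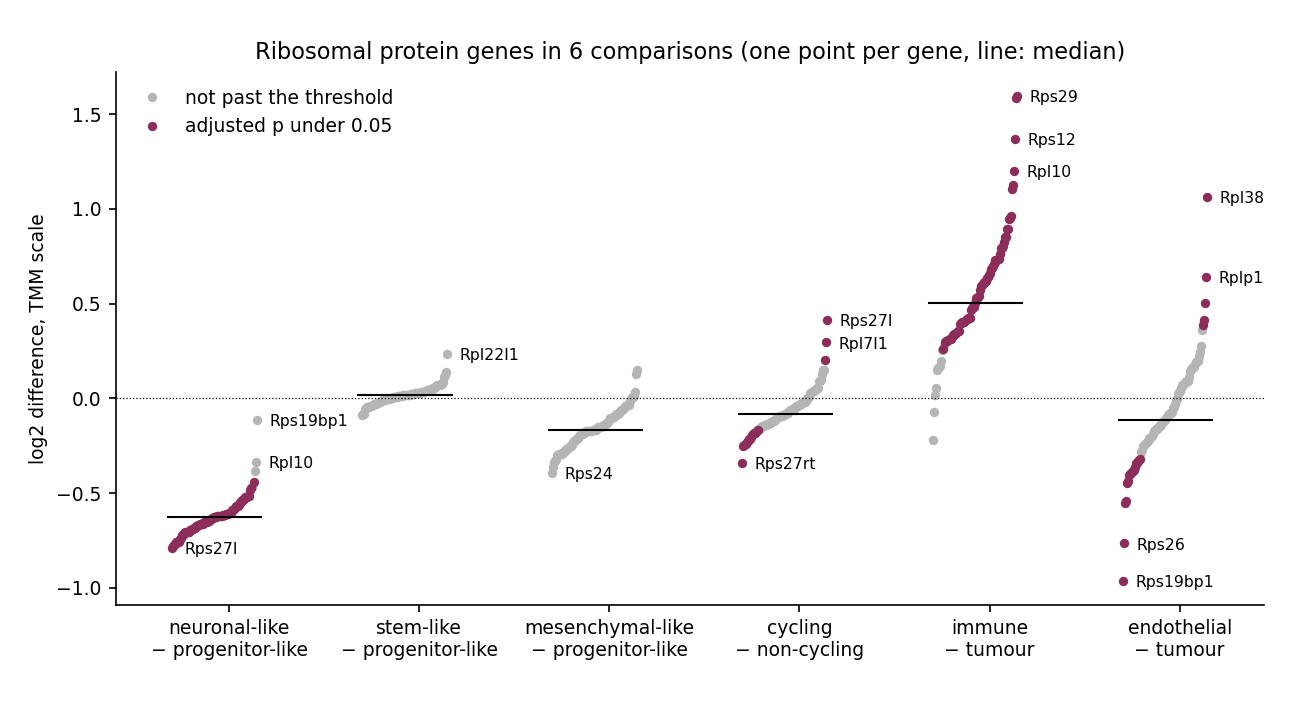
Log2 difference on the TMM scale (vertical axis) of each tested ribosomal protein gene in 6 comparisons (horizontal axis), sorted within a comparison; coloured points passed an adjusted p of 0.05 and horizontal lines are medians over the members drawn. Rpl39l is left out because its tumour sums hold 0 or 1 UMI in nearly every tumour state. The neuronal-like points lie below 0, with 79 past the threshold.

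The count of calls depended on which tumours entered. Without tumour 1 none of the 84 members passed (75 at an unadjusted p under 0.05), and without tumour 2 14 did, while the median member stayed at -0.66 and -0.63; without the tumour as a block, 23 passed. With total UMIs as the scale, which moved the median of all genes to 0.14, 72 members were lower, with a median of -0.46. Depth was also compared, since neuronal-like cells were shallower. Among cells with 6000 to 12000 UMIs the share was 15.2% against 22.2% in tumour 1 and 13.8% against 19.1% in tumour 2. With 3000 to 6000 UMIs it was 13.1% against 19.6% and 10.5% against 15.2%. Tumour 3 had too few neuronal-like cells in these 2 ranges. With 12000 to 24000 UMIs the gap was smaller in tumours 1 and 2, at 17.2% against 21.7% and 15.9% against 19.7%. In tumour 3 it was 13.3%, from 20 neuronal-like cells, against 24.2%.

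The share was next followed over the level of the 8 neuronal marker genes, counted per 10000 UMIs that were not ribosomal, in all cells of the tumour states and those with markers of several states. In tumour 1 the median share was 21.4%, 21.1% and 21.2% in cells with 0 to 2, 2 to 5 and 5 to 10 such UMIs, then 19.5%, 16.6% and 14.7% in cells with 10 to 20, 20 to 40 and at least 40. In tumour 2 it went from 18.8% in the lowest range to 12.6% in the highest, and in tumour 3 from 23.0% to 12.0%. In tumours 1 and 3 the medians of the 3 lowest ranges lay close together and those from 20 neuronal UMIs on were lower, while in tumour 2 the medians were lower from 5 on. The highest range held 196, 133 and 40 cells, and the median depth moved with it, from 10479 to 7916.5 UMIs per cell in tumour 1, 8789.5 to 6909 in tumour 2 and 20291 to 16404 in tumour 3. The part of depth in this pattern was not tested.

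**Figure D3:**
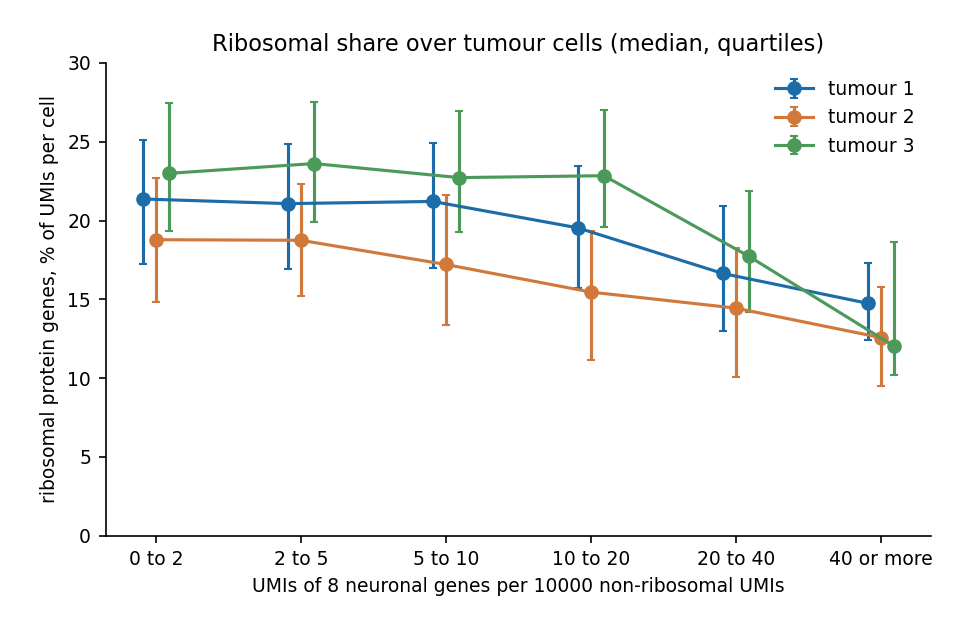
Share of UMIs on ribosomal protein genes (vertical axis, percent) against the level of 8 neuronal genes per 10000 non-ribosomal UMIs (horizontal axis, 6 ranges) in tumour cells, with medians and quartiles over cells for each tumour. The medians of the highest range, 12.0% to 14.7%, are below those of the lowest, 18.8% to 23.0%.

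Genes that act around the ribosome were counted in the same fit, in which 8.2% of all genes were lower. Rack1 and Fau, which encode ribosomal proteins but whose names fall outside the rule, were lower in neuronal-like cells, with log2 differences of -0.81 and -0.53. Of 15 other TOP mRNAs 8 were lower and none higher, among them the nucleolar chaperone Npm1 at -0.76 and the elongation factor subunit Eef1d at -0.75. Of 56 ribosome biogenesis genes 29 were lower and none higher, with a median of -0.54; Utp20, needed for processing of the small subunit, gave -1.14 and Rrp15 -0.93. Of 77 mitochondrial ribosomal proteins 10 were lower and none higher, with a median of -0.28 (Mrpl36 -0.83). The initiation factor list of 30 genes also holds the Eif4e-binding Eif4ebp1 and Eif4ebp2. In it 10 were lower, such as Eif2s1 at -0.63, and 1 was higher, Eif4a2 at 0.61. Of 14 regulators 4 were lower: Mycn by -1.51 (SE 0.18, adjusted p = 6.8e-06), Trp53 by -0.91, Myc by -0.69 and Larp4; Myc (adjusted p = 0.049) passed in 5 of 18 alternatives only. The snoRNA host gene Snhg6 gave -0.77; 1 of the 2 snoRNA host genes tested was lower.

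Stem-like and progenitor-like cells were compared in the same way, and their ribosomal protein mRNAs did not differ detectably. None of the 84 members passed in either direction with edgeR, none had an unadjusted p under 0.05, and DESeq2 also called none; 0.961% of all genes passed. The median member differed by 0.02. The share was 21.1% ± 2.39 (SD, n = 3) against 21.3% ± 2.38, a mean difference of -0.24 points with an SD of 0.11, and its sign changed under a stricter gate. Rpl22l1 departed most from the other members with usable counts: it was at 1173, 901 and 1397 CPM in stem-like and at 1008, 760 and 1236 in progenitor-like cells, higher in each of the 3 tumours (log2 difference 0.24, SE 0.14, adjusted p = 0.65). The log2 differences of Rplp1 and Rpl21 were 0.14 and 0.12, neither past the threshold. None of the 56 ribosome biogenesis genes passed, with a median of -0.17, and of the regulators Mycl alone was lower, by -0.76.

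In mesenchymal-like cells the share was below the progenitor-like one by -1.94, -0.66 and -4.67 points in tumours 1, 2 and 3 (exact p = 0.25), but again no member passed with edgeR (5 at an unadjusted p under 0.05) or DESeq2, against 17.9% of all genes. The median member gave -0.17 and 77 of 84 values were negative. Among members with usable counts, which leaves out Rpl39l, the largest departures from the median were Rpl22l1 at 0.15, Rplp1 at 0.13 and Rps24 at -0.40, none of them past the threshold. Tumour 3, with 59 such cells, differed most: Rps24 gave -0.69 there and -0.31 and -0.17 in the other tumours. Some genes around the ribosome did pass. Of the ribosome biogenesis genes 18 of 56 were lower and none higher, against 5.95% of all genes lower, with Wdr12 at -0.81, and 4 of 14 regulators were lower, Mycn by -1.85 and Mycl by -1.03. Of the mitochondrial ribosomal proteins 6 of 77 were lower, with Mrpl32 at -0.64, a share near that of all genes.

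**Figure D4:**
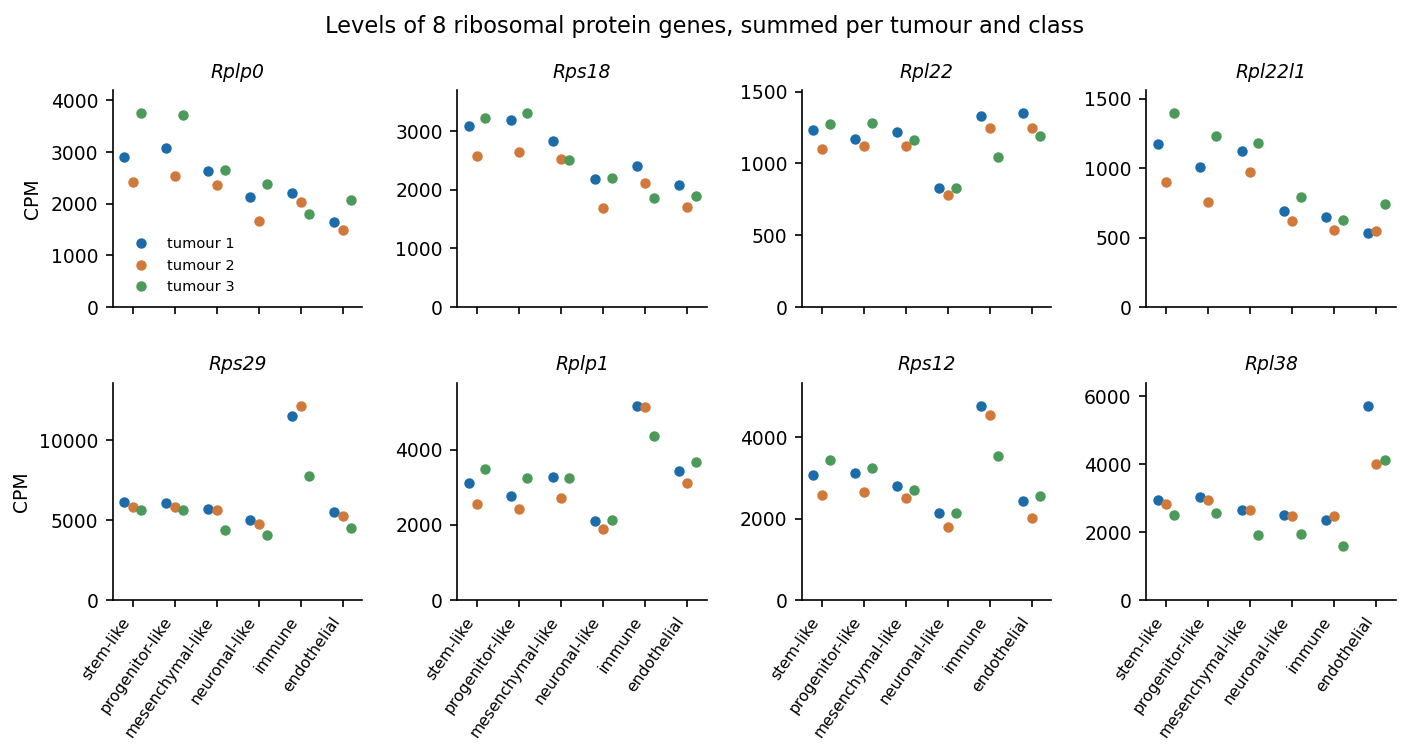
CPM (vertical axes, starting at 0) of 8 ribosomal protein genes in cells summed by tumour (colour) and class (horizontal axis). Rplp0, Rps18, Rpl22 and Rpl22l1 are lower in neuronal-like than in progenitor-like cells of each tumour; Rps29, Rplp1 and Rps12 are higher in immune cells and Rpl38 in endothelial cells than in the 4 tumour states.

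Cycling tumour cells, with transcripts of S or G2/M genes, were compared with the other cells of the 4 tumour states. Their ribosomal share was 18.9%, 17.2% and 20.7% against 21.1%, 17.8% and 23.9%, a mean difference of -2.04 points (SD 1.29, exact p = 0.25), whereas cycling cells were the deeper ones, with medians of 15834, 12499.5 and 30024 UMIs against 9645, 8020.5 and 18929. The direction was the same inside the stem-like cells, with 19.2% against 21.9%, 17.8% against 18.6% and 21.0% against 24.1%, and inside the progenitor-like cells, with 18.7% against 22.2%, 16.2% against 19.0% and 20.4% against 24.2%. Per gene the differences were small. Of 83 members tested 15 were lower, against 16.3% of all genes, and 3 were higher, against 19% of all genes. In this main fit the shares were near or below those of all genes. The number of members called changed markedly in 12 of 19 alternatives, upward in some and downward in others, as listed in the last section. The shares of all genes under those alternatives are not given, so the reading holds for the main fit only. The median member gave -0.09.

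The 3 higher members were Rps27l, Rpl7l1 and Rps19bp1. Rps27l was at 588, 459 and 437 CPM in cycling and at 425, 355 and 382 in non-cycling cells, higher in each tumour (log2 difference 0.42, SE 0.08, adjusted p = 0.0018). Rpl7l1 gave 0.29 (SE 0.07). Rps19bp1 gave 0.20 (SE 0.07), a call kept in 3 of 19 alternatives. The 4 largest of the lower members were Rps27rt at -0.34, Rpl37 at -0.25, Rps27 at -0.25 and Rps21 at -0.24. Rps27 was at 2865, 2979 and 3130 CPM in cycling and at 3723, 3599 and 3856 in non-cycling cells, with no overlap, so Rps27 and its relative Rps27l moved in opposite directions. Rps27rt is a near copy of Rps27: of the 98-base windows in the last 300 bases of its transcripts, 85.7% also occur in another gene, so its reads cannot be fully told apart from those of Rps27. Without the tumour as a block edgeR called no member (0 at an unadjusted p under 0.05), against 26 with DESeq2 and the block; with tumours 1, 2 and 3 left out in turn, 2, 9 and 22 members passed.

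Other genes around the ribosome were counted in cycling cells in the same fit, in which 19% of all genes were higher and 16.3% lower. Of 77 mitochondrial ribosomal proteins 38 were higher and 1 lower, with a median of 0.24 and Mrpl18 at 0.89. Of 56 ribosome biogenesis genes 22 were higher and none lower, with the snoRNP core proteins Nop56 at 0.69 and Dkc1 at 0.57. Of the 30 genes of the initiation factor list 2 were lower and 18 higher. The higher ones include the cap-binding Eif4e at 0.62 and also Eif4ebp1, which encodes a repressor that binds Eif4e, at 0.83. Of 15 other TOP mRNAs 2 were lower and 7 higher, with Nap1l1 at 0.60 and Npm1 at 0.46 among the higher ones, but their median was -0.01 and 8 of 15 values were negative. Of 14 regulators 3 were higher, with Trp53 at 0.44, and 1 was lower, Myc at -0.36.

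Immune cells were compared with the mean of the 3 neural tumour states (stem-like, progenitor-like and neuronal-like). The share per cell did not differ in a common direction: it was higher by 0.49 and 2.31 points in tumours 1 and 2 and differed by -3.77 in tumour 3 (exact p = 1). Each of the 3 states counted equally in this mean, whatever its number of cells. In tumour 1 the immune median, 19.9%, was below the stem-like 21.4% and progenitor-like 21.7% and above the neuronal-like 15.2%. In tumour 2 it was above all 3 states, and in tumour 3, at 16.4%, only above the neuronal-like 13.8%. The fit per gene gave the states the same equal weights. Per gene the answer depended on the scale. With TMM scaling, which sets the bulk of genes equal between samples, 72 of 84 members were higher and none lower, with a median of 0.51, against 30.1% of all genes; with tumours 1, 2 and 3 left out in turn, 33, 36 and 82 were higher. With total UMIs as the scale 12 were higher, against 19.3% of all genes, and 38 lower, against 54.7%, with a median of -0.14. The TMM factors of the immune sums were 0.65, 0.68 and 0.78, and this change of scale moved the median of all genes from -0.15 to -0.79. Only members higher on both scales are called higher below. There were 12 of them, and without Rpl39l, which passed the filter on low counts only through cells other than tumour cells, 11 of 83 (71 of 83 with TMM alone). Over all genes the share was 19.3%.

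Apart from Rpl39l, which is given further on by its UMIs, Rps29, Rplp1 and Rps12 had the largest differences of these members. Rps29, a zinc-binding protein of the small subunit, was at 11481, 12114 and 7776 CPM in immune cells of tumours 1, 2 and 3 and at 4062 to 6145 in the 3 neural tumour states, with no overlap. The log2 difference was 1.59 (SE 0.10, adjusted p = 2.6e-11) with TMM and 0.94 with total UMIs. Its share of the family's own UMIs, which no scaling touches, was 5.77%, 6.21% and 4.93% in immune cells and 2.41% to 3.45% in these states.

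The stalk protein Rplp1 was at 5167, 5146 and 4369 CPM in immune cells and at 1889 to 3504 in the 3 neural tumour states (1.59 with TMM, 0.93 with total UMIs). Its stalk partner Rplp2 gave 0.73 and 0.07, the second not past the threshold. Rps12 was at 4760, 4541 and 3549 against 1795 to 3433 CPM, again without overlap (1.37 and 0.71). Rpl10 gave 1.20 and 0.54, and Rpl12 1.13 and 0.46.

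Paralogues were set side by side in immune cells, with no test of the difference between partners. Rpl36al was higher on both scales (1.10 and 0.45), while its relative Rpl36a gave 0.35 with TMM and -0.31 with total UMIs. Of their windows, 51.6% for Rpl36al and 90.6% for Rpl36a also occur in another counted gene, as do 83.6% of those of Rps12. Rpl39 gave 0.96 and 0.30. Rpl22 gave 0.85 and 0.20, the second not past the threshold, and Rpl22l1 was at 647, 552 and 627 CPM in immune cells against 694, 624 and 796 in neuronal-like cells, the lowest of the 3 neural tumour states in each tumour. It gave 0.06 with TMM, not past the threshold, and -0.60 with total UMIs (adjusted p = 1.9e-05). Of the family's UMIs, Rpl22l1 took 0.325%, 0.283% and 0.398% in immune cells and 0.402% to 0.600% in these states.

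The 3 paralogues below are known for expression in few tissues and had almost no UMIs in tumour cells. Rpl10l, known from testis, had no UMI in any of the summed classes: 0 of 122695587 UMIs of the 4 tumour states allows up to 0.0245 CPM. Rpl3l, known from heart and skeletal muscle, had 12 UMIs in the 4 tumour states, 0.0978 CPM, and 1 in immune cells. Rpl39l, the testis-enriched relative of Rpl39, had 0, 2 and 1 UMIs in the tumour states of tumours 1, 2 and 3 and 3, 15 and 24 in immune cells, although the immune cells held far fewer UMIs in all. This is 0.587 (exact Poisson 95% interval 0.121 to 1.72), 4.14 (2.31 to 6.82) and 12.3 (7.90 to 18.3) CPM in immune cells, against upper bounds of 0.0721, 0.359 and 0.108 in the tumour states, so the intervals did not overlap in any tumour. Endothelial cells held 1, 0 and 6 Rpl39l UMIs in tumours 1, 2 and 3, 1.58, 0 and 8.01 CPM, with an upper bound of 14.7 for tumour 2, so most of them came from tumour 3. None of the 98-base windows at the 3′ end of Rpl39l occurs in another annotated transcript.

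Around the ribosome, Fau, which encodes a small-subunit protein fused to a ubiquitin-like part, gave 1.56 with TMM and 0.90 with total UMIs in immune cells, and the poly(A)-binding protein Pabpc1 1.55 and 0.89. Hnrnpa1 was lower on both scales (-0.90 and -1.54), as were Dkc1 (-1.15 and -1.80), Mycn (-2.54 and -3.19) and Mycl (-1.66 and -2.34). With TMM, 2 of 14 regulators were lower, Mycn and Mycl, and 4 were higher, among them Rptor at 1.14 and Max at 0.85. On the same scale 9 of 15 other TOP mRNAs were higher and 3 lower, and 15 of 30 genes of the initiation factor list were higher and 1 lower. The counts of these lists with total UMIs as the scale are not given here, so they hold for TMM only. With TMM alone, 9 of 56 ribosome biogenesis genes were higher and 18 lower, against 30.1% and 31.9% of all genes.

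In endothelial cells the share was below the mean of the 3 neural tumour states in each tumour, with differences of -5.30, -3.47 and -9.74 points. The means were 12.6% ± 1.93 against 18.8% ± 1.79 (SD, n = 3, exact sign-flip p = 0.25). In tumour 2 the endothelial median, 13.3%, was above the neuronal-like 13.1%. Depth differed in tumour 3, with medians of 9755 UMIs in endothelial and 19883 in stem-like cells. Its stem-like cells of 3000 to 6000 UMIs had a median share of 10.5%, as its endothelial cells had. Over summed UMIs its endothelial share was 15.7%, against 23.3% in stem-like and 16.3% in neuronal-like cells. The part of depth was not tested. Among the members, 17 of 84 were lower, against 25.7% of all genes, and 6 were higher, against 22.9%, with a median of -0.11; 1 of the 6 is Rpl39l, which rests on few UMIs, and 5 of 83 were higher without it. These counts moved with the processing, from 6 to 62 members called, and only 62, 29 and 39 cells entered. With cells thinned to 3000 UMIs 61 were lower, against 19.9% of all genes, and 1 higher, against 16.2%, with a median of -0.48 (-0.46 over all genes), and with RLE size factors 12 were lower, against 23.4%, and 14 higher, against 24.1%. Without tumours 1, 2 and 3 in turn, 6, 13 and 37 were called.

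Rpl38 stood apart. This large-subunit protein, known for its role in the translation of Hox mRNAs in the mouse embryo, was at 5701, 4004 and 4120 CPM in endothelial cells of tumours 1, 2 and 3 and at 1949 to 3030 in the neural tumour states, with no overlap (log2 difference 1.06, SE 0.12, adjusted p = 1.8e-07). It was past the threshold and higher in all 18 alternatives run. In immune cells Rpl38 was at 2353, 2473 and 1599 CPM. Of the family's own UMIs it took 3.56%, 2.68% and 2.63% in endothelial cells. Mural cells, the other vascular class, had 1.41% in tumour 1 and 1.08% in tumour 3, within the 1.08% to 1.79% of the neural tumour states.

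Rplp1 was also higher in endothelial cells, at 3451, 3113 and 3688 CPM (0.64, SE 0.11), values that overlapped those of the neural tumour states. Rpl22 was higher as well (0.50). Neither Rplp1 nor Rpl22 passed with cells thinned to 3000 UMIs (0.24 and 0.20) or without tumour 1 (0.53 and 0.35). Rps26, which lies where mRNA leaves the small subunit, was at 1923, 1798 and 1344 CPM against 2355 to 4052 in the neural tumour states, with no overlap (-0.77, SE 0.11). Rpl13a gave -0.55, Rpl22l1 -0.36 and Rps19bp1 -0.96. Beside the 25.7% of all genes lower and 22.9% higher, ribosome biogenesis genes were lower in 32 of 56 cases and higher in 2, with Rpf2 at -1.68 and Wdr12 at -1.37. Of the other TOP mRNAs 2 of 15 were higher and 4 lower, the lower ones with Nap1l1 and Hnrnpa1 at -1.33 and -1.23. Of 14 regulators 2 were higher, with Max at 1.42, and 4 lower, with Mycn at -1.86. In the initiation factor list of 30 genes 7 were higher and 3 lower.

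The 3 tumours also differed from each other, and more so for some members than for the share as a whole. In stem-like cells the highest tumour was above the lowest by 1.34-fold for the median member and by at most 2.18-fold. Rpl13a was 1.02 log2 units higher in tumour 3 than in tumour 1, Rpl35 0.82 and Rpl10 0.63, whereas Rps27rt was at -0.84, Rps28 at -0.56 and Rpl41 at -0.54, against 0.17 for the median member. The same members stood out in immune cells of the same libraries: Rpl13a and Rpl35 were at 0.42 each and Rpl10 at 0.17, and Rps27rt was at -1.21, Rps28 at -0.87 and Rpl41 at -0.74, against -0.33 for the median member. Across 83 members, the tumour 3 to tumour 1 differences of stem-like and immune cells had a Pearson r of 0.84 after the median was taken off, and 70 of the 83 lay on the same side of both medians. These cells share the library and its sequencing and not the class. There is 1 library per tumour, so the animal and the library cannot be told apart, and no test was made. Of the windows of Rpl35, 95.1% occur in another gene that was also counted, as do 43.9% of those of Rpl13a, 78.4% of Rpl10 and none of Rps28.

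**Figure D5:**
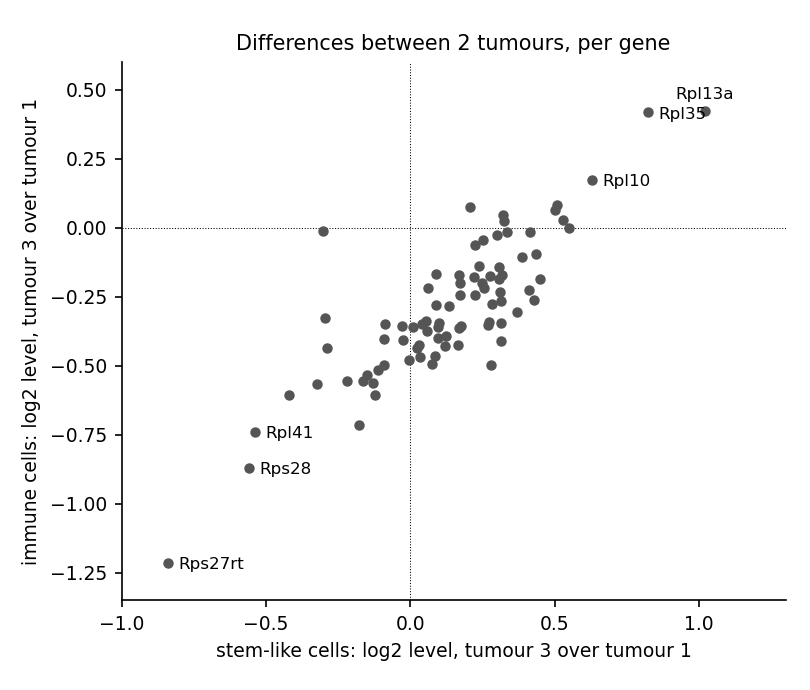
Log2 level in tumour 3 over tumour 1 for each ribosomal protein gene with at least 20 UMIs in each sum, in stem-like cells (horizontal axis) and immune cells (vertical axis). Rpl13a, Rpl35 and Rpl10 lie at the upper right and Rps27rt, Rps28 and Rpl41 at the lower left in both.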

How the data were processed

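The authors deposited UMI counts per gene and barcode, made with Cell Ranger 3.1.0 on mm10 from 10x 3′ libraries (1 per tumour), with no normalisation. The libraries held 79529921, 40151353 and 67645602 UMIs in 12467, 9485 and 6428 barcodes; 22 to 42 barcodes were shared between libraries (7 to 9 among kept cells). Members, lists and tests were chosen with earlier results of these data known, and gate thresholds after the marker levels were seen. Barcodes with at least 3000 UMIs were kept if their mitochondrial share was under the median plus 3 MAD (at most 20%). A class needed 3 genes of its markers and 10 UMIs of them per 10000 (20 for non-tumour classes) and no competing list. No doublet caller was run; barcodes that passed gates of different kinds were left out of the classes. UMIs were summed per tumour and class (at least 20 cells) and tested with edgeR 4.0.16 in R 4.3.3 (TMM, filterByExpr, quasi-likelihood, Benjamini-Hochberg over all genes, threshold 0.05), checked on simulated counts, with DESeq2 1.42.0 as an alternative. The simulation changed genes of the neuronal-like class only, up and down alike. It does not cover the immune and endothelial comparisons, where the counts depended on the scale. Tumour was a block because classes share an animal; deviations of classes of 1 tumour correlated with a median r of 0.40 (0.07 to 0.88 over 45 pairs). Sums of 1 tumour are paired by source. CPM were computed from all UMIs of a sum, not scaled by length. Poisson intervals (95%) and limits (3 UMIs) cover counting error only. Named members are the paralogues, stalk proteins, Rpsa and Rps19bp1, up to 6 members past the threshold with 1 sign in each tumour, by size, and up to 4 departing most from the median; of other lists, up to 4 genes. Of the members, 84 passed the filter on low counts (83 for cycling); Rpl3l and Rpl10l did not. Sequences are from RefSeq (GRCm38.p6); windows came from GENCODE M21 transcripts. The p-values rest on how the differences between classes varied over 3 tumours, each a separate sample. In edgeR the level of each tumour was taken out by the block. All class sums of a fit entered its estimate of the spread, also those of classes not compared here.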

Additional observations from a re-analysis of the deposited data

Results flagged for a closer look

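Of the data outside the comparisons, ribosomal symbols with -ps, which mark pseudogenes, held UMIs in each library: 9 such symbols took 0.0101%, 0.00808% and 0.00717% of all UMIs in tumours 1, 2 and 3. A second signal lay in cells with T cell markers, which were too few for a comparison: the median ribosomal share was 30.2% over 3 cells of tumour 1 and 45.3% over 3 cells of tumour 3. The 6 cells ranged from 28.3% to 46.9%, above the median of each class compared, and held 3102 to 9521 UMIs. Neither difference was tested.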

How the results depend on the processing

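The neuronal-like comparison kept its direction in all 18 alternatives: 72 to 81 members were lower in those other than no replicate block (23) and leaving out 1 tumour (0 to 81), and the share stayed lower in all 14 run on it. The tumour block pairs classes of the same animal; without it 0 members were called in cycling cells and 8 in endothelial cells. For mesenchymal-like cells the count was 3 with total UMIs as the scale, an alternative chosen after seeing the data as were the gate without ribosomal UMIs and the fit on stem-like cells only, 1 with cells of 3000 to 10000 UMIs and 1 with cells thinned to 3000 UMIs. For stem-like cells the mean share difference was -0.438 at a minimum of 2000 UMIs, -0.0973 at 5000, -1.09 in cells of 3000 to 10000 UMIs, -0.117 after thinning, -0.112 without the deepest 5% of cells, -0.408 with gates that leave out ribosomal UMIs, -0.0482 over summed UMIs and 0.111 with the stricter gate; the cause was not tested. In cycling cells the count was 30 with RLE, 28 with TMM over the other genes, 49 without a low-count filter, 51 with total UMIs, 38 at 2000 UMIs, 29 after thinning, 9 with the looser gate, 44 with gates without ribosomal UMIs, 34 in stem-like cells and 2 to 22 when 1 tumour was left out. In immune cells the share difference turned to 0.686 at 2000 UMIs, 1.80 in cells of 3000 to 10000 UMIs and 0.552 with the stricter gate, and ran from -1.64 to 1.40 when 1 tumour was left out; 50 members were called with total UMIs, where Rpl36a gave -0.31, and 33 to 82 when 1 tumour was left out. In endothelial cells the count was 26 with RLE (14 higher, 12 lower), 38 with TMM over the other genes, 57 with total UMIs, 15 at 5000 UMIs, 61 in cells of 3000 to 10000 UMIs, 62 after thinning, 53 with the looser gate, 52 without the deepest 5% of cells, 39 with gates without ribosomal UMIs and 6 to 37 when 1 tumour was left out. Rps19bp1 in neuronal-like cells gave 0.021 with RLE, 0.014 with DESeq2, 0.052 with total UMIs and 0.022 with the stricter gate. Where a count in this section has no direction and no share of all genes beside it, it shows only how far the number of calls moved. Such counts do not tell whether the members departed from all genes. Endothelial sums held 29 to 62 cells per tumour and the neuronal-like sum of tumour 3 held 45. Share values used fewer tumours where a class held under 20 cells.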
